A study of Mus musculus with 18 samples.

Results

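The enzymes described here carry fructose and glucose through the liver cell to lactate. The set lists 8 genes, Khk, Pfkl, Pfkfb1, Pfkfb3, Gpi1, Pgk1, Eno1 and Ldha, and its members were all probe sets that the platform annotation assigns to 1 of these symbols alone. That gave 10 probe sets for 5 genes, Khk, Pfkl, Pfkfb3, Pgk1 and Ldha, of 45101 probe sets on the array. Pfkfb1, Gpi1 and Eno1 had no probe set under their symbol in the annotation used and were not analysed here. Of the 10 probe sets, 9 passed the filter on low signal, and each of the 5 genes had at least 1 that did.

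Livers came from offspring of the outbred mouse line DUK, bred from 4 outbred and 4 inbred lines, and each of 6 groups had 3 arrays (Affymetrix Mouse Genome 430 2.0). In the HP pregnancy groups the dams ate a high protein diet of 40% protein by weight in pregnancy and the control diet in lactation. In the HP lactation groups they ate the high protein diet in lactation and the control diet in pregnancy, and in the control groups they ate the isoenergetic control diet of 20% protein throughout. Each diet was sampled at postnatal day 150 and at day 21, the age of weaning. The RNA of several livers was pooled for each array. The labels give 3, 4 or 4 to 5 animals in different places, the offspring's sex and the hour of sampling are not given, and nothing shows that pools of a group held different animals, so p-values describe the spread between pools. In a whole liver, fewer cells of a type and less RNA per cell cannot be told apart.

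The arrays correlated with each other at 0.887 to 0.9325 over all probe sets. Of 8 hepatocyte markers 7 were named and all 7 passed the filter, while 0 of 6 skeletal muscle markers did. Measures of RNA quality moved with day. The ratio of the 3' to the 5' control probe set of Gapdh was 1.3 to 1.803 on the day 150 arrays and 0.821 to 0.993 on the day 21 arrays. For actin this ratio was higher, at 4.062 to 6.498 on the day 150 arrays and 1.964 to 3.154 on the day 21 arrays. The transcript of the inactive X chromosome, Xist, had signals of 11644.4 in HP lactation day 150 replicate 4 and 7343 in control day 21 replicate 2, and at most 93 on the other arrays. Summed markers of Kupffer cells, the resident macrophages, were 14733.7 to 22367.2 at day 150 and 9901.8 to 17671.1 at day 21, with all 8 above the filter. Summed stellate cell markers ran the other way, at 15243.7 to 23837.9 at day 150 and 22032.4 to 32314.4 at day 21. Of the exocrine pancreas markers 4 were named and 1 passed, while Cpa1, Prss2 and Ctrb1 were under the filter. Their sums, which therefore rest mostly on 1 gene, were 5444.4 to 8011.6 at day 150 and 1470.9 to 2859.9 at day 21. The part of these differences in the day results below was not tested, except that the Gapdh ratio was added to the fit and the arrays with Xist signal were left out, with the values given there.

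Fructose enters hepatocytes and is phosphorylated by ketohexokinase (Khk), which has no feedback by its product, and the resulting fructose 1-phosphate is cleaved into triose units that join glycolysis below its main control point. That control point is phosphofructokinase, of which Pfkl is the liver subunit. The bifunctional enzymes Pfkfb1, the main liver form, and Pfkfb3, a form with high kinase activity, make and break fructose 2,6-bisphosphate, the strongest activator of phosphofructokinase. Phosphoglycerate kinase (Pgk1) then yields ATP, and lactate dehydrogenase A (Ldha) turns pyruvate into lactate. At weaning, rodents exchange milk, rich in fat, for a diet rich in carbohydrate.

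Between day 21 and day 150 the signal of 2 of the 5 genes changed in opposite directions. Khk fell in all 3 dam diets. Pfkfb3 rose in control and HP lactation offspring on the probe set used, while a second probe set below the signal filter went the other way. Of all 11018 genes tested, 23.6% had an adjusted p under 0.05 in limma after HP pregnancy, 25.7% after HP lactation and 17.8% in control. As Khk and Pfkfb3 were the 2 genes called, the bases before their start sites are shown, as RefSeq gives them for build GRCm38.p6. Each window is 250 bases, written 5' to 3' on the gene's strand. The windows are chr5:30921309-30921558 (plus strand) for Khk and chr2:11553930-11554179 and chr2:11502091-11502340 (minus strand) for the 2 start sites that the RefSeq promoter table gives for Pfkfb3. These start sites lie within the bounds of the genes given below.
Khk: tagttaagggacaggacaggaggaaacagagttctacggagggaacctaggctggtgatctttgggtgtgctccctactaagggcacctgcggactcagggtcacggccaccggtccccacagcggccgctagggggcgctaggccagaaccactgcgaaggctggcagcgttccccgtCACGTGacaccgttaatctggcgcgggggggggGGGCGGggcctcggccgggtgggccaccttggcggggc
Pfkfb3 first start: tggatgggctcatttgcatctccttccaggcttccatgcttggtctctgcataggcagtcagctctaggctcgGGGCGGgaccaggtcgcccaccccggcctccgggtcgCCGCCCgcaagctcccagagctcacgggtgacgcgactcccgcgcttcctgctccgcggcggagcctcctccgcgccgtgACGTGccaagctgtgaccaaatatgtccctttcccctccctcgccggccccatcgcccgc
Pfkfb3 second start: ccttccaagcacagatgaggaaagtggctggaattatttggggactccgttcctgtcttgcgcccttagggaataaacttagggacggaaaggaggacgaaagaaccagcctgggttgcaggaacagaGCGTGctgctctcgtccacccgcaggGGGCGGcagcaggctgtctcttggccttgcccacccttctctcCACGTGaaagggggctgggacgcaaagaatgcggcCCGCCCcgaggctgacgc

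Capitals in the windows mark matches, on either strand, to 5 motifs searched by letter. The only E-box form searched was CACGTG, a word bound by several families of transcription factor. It holds within it the shorter motif ACGTG, so those matches overlap. ACGTG and GCGTG were searched as cores of the hypoxia element. The other motifs searched were, as a common GC-rich word, GGGCGG, with the TATA word TATAAA as the last. CACGTG occurred once in the Khk window and once in the second Pfkfb3 window. It also occurred 2 times in the first of the Ldha windows, although Ldha passed between the days in no diet, and it was in 6.0% of 32851 windows of the same length. The share of windows was 16.6% for ACGTG. It was 28.2% for GCGTG, 32.7% for the GC-rich word and 12.4% for the TATA word. The Khk window held 1 match to the GC-rich word and each Pfkfb3 window 2, and none of the 3 windows held the TATA word. These are matches of letters and say nothing of binding.

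Khk lies at chr5:30921436-30931248 (GRCm38.p6) and was measured by 1 probe set, 1449062_at. Its MAS5 signal, a linear array intensity, was 9719.5, 11046.2 and 11286.8 at day 150 after HP pregnancy and 13320.1, 13249.3 and 15769.6 at day 21. After HP lactation it was 11005.2, 9617.5 and 10577.8 at day 150 and 13069.5, 11159.1 and 15276 at day 21. In control offspring it was 10398.6, 9814.5 and 10428.7 at day 150 and 16212.8, 15511.3 and 15018.2 at day 21. In each diet all 3 arrays of day 150 lay below all 3 of day 21. The log2 change was -0.40 after HP pregnancy (SE 0.114, 0.758-fold, adjusted p = 0.0165 in limma), -0.33 after HP lactation (SE 0.114, 0.795-fold, adjusted p = 0.0404) and -0.61 in control (SE 0.114, 0.656-fold, adjusted p = 0.00137). The HP lactation call was lost in 9 of 16 other settings, among them no filter (adjusted p = 0.0818), no trend in the variance (0.0642), array weights (log2 change -0.29, adjusted p = 0.111) and a fit of the compared arrays alone (0.173). It was also lost without replicate 1 or 3 of day 21 or replicate 5 or 6 of day 150 (log2 change -0.22 and adjusted p = 0.186 without day 21 replicate 3). The HP pregnancy call was lost without day 21 replicate 3 (adjusted p = 0.0997) or day 150 replicate 1 (adjusted p = 0.0776). With the Gapdh ratio as a covariate, which follows day closely, the changes were -0.34, -0.27 and -0.57 and the adjusted p values 0.86, 0.965 and 0.367, with SEs of 0.316, 0.328 and 0.229.

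Ordered by geometric mean, Khk was highest in control day 21 (15570), then HP pregnancy day 21 (14070) and HP lactation day 21 (13060), then HP pregnancy day 150 (10660), HP lactation day 150 (10380) and control day 150 (10210). Within each day no neighbours in this order passed the test. Between HP lactation at day 21 and HP pregnancy at day 150, which differ in diet and day and were not compared, the arrays overlapped.

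Pfkfb3 lies at chr2:11471430-11554071, and its probe set 1416432_at passed the filter. Its signal was 104, 298.5 and 243.5 at day 150 after HP pregnancy and 111.4, 95.6 and 86.8 at day 21. In HP lactation offspring it was 273.4, 464.2 and 228.8 at day 150 and 143.1, 107.5 and 95 at day 21. In control offspring it was 240.5, 190.7 and 209.8 at day 150 and 58.1, 99.3 and 149.8 at day 21. The days were apart in HP lactation and control offspring, while in HP pregnancy offspring day 150 replicate 1 lay among the day 21 arrays. The log2 change was 1.44 after HP lactation (SE 0.373, 2.71-fold, adjusted p = 0.0086 in limma) and 1.16 in control (SE 0.373, 2.23-fold, adjusted p = 0.038), which passed the test. After HP pregnancy it was 1.01 (SE 0.373, 2.01-fold, adjusted p = 0.0565), which did not, and without day 150 replicate 1 it was 1.47 (adjusted p = 0.00776). The control call was lost with no filter (adjusted p = 0.0646), with array weights (1.01, adjusted p = 0.0586) and without any one of 5 of the 6 control arrays (adjusted p up to 0.163, log2 change 0.80, without day 21 replicate 1), and the HP lactation call without day 150 replicate 5 (1.14, adjusted p = 0.0532). Without both arrays with Xist signal the control change was 1.19 (adjusted p = 0.0877), and with the Gapdh ratio as a covariate the changes were 1.82, 2.28 and 1.70 after HP pregnancy, after HP lactation and in control, with adjusted p = 0.753, 0.799 and 0.409.

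A second Pfkfb3 probe set, 1456676_a_at, went the other way at a signal below the filter (57.5). It read 47.9, 5.6 and 26.6 at day 150 after HP pregnancy and 59.1, 69.7 and 49.9 at day 21. In HP lactation offspring it read 13.6, 31.4 and 5.7 at day 150 and 59.7, 59.8 and 62.4 at day 21, and in control 35.8, 20.4 and 46.3 at day 150 and 47.3, 59.2 and 78.1 at day 21. In all 3 diets the day 150 arrays lay below the day 21 arrays. In a fit of every probe set without the filter, the log2 change was -1.62 after HP pregnancy (adjusted p = 0.183), -2.17 after HP lactation (adjusted p = 0.0566) and -0.90 in control (adjusted p = 0.564), so none passed. Over the 18 arrays the 2 probe sets correlated at r = -0.625 on the log2 scale. The rise of Pfkfb3 was therefore seen on 1 probe set and not on the other, and which transcripts each one binds was not examined.

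By level, Pfkfb3 on the used probe set was highest in HP lactation day 150 (geometric mean 307.4), then control day 150 (212.7) and HP pregnancy day 150 (196.3), then HP lactation day 21 (113.5), HP pregnancy day 21 (97.41) and control day 21 (95.25). Neighbours within a day did not pass the test. HP pregnancy at day 150 and HP lactation at day 21 were not compared, and their arrays overlapped.

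Of the 5 genes, 2 were called in control offspring (1 rise, 1 fall), where 9.7% of all 11018 genes tested rose and 8.08% fell. After HP pregnancy 1 of 5 was called, a fall, where 12.1% of all genes rose and 11.5% fell. After HP lactation 2 of 5 were called (1 rise, 1 fall), where 14.1% rose and 11.6% fell. The median log2 change of the 5 was -0.02 after HP pregnancy, 0.14 after HP lactation and -0.04 in control, against 0.02, 0.03 and 0.02 over all genes.

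**Figure D1:**
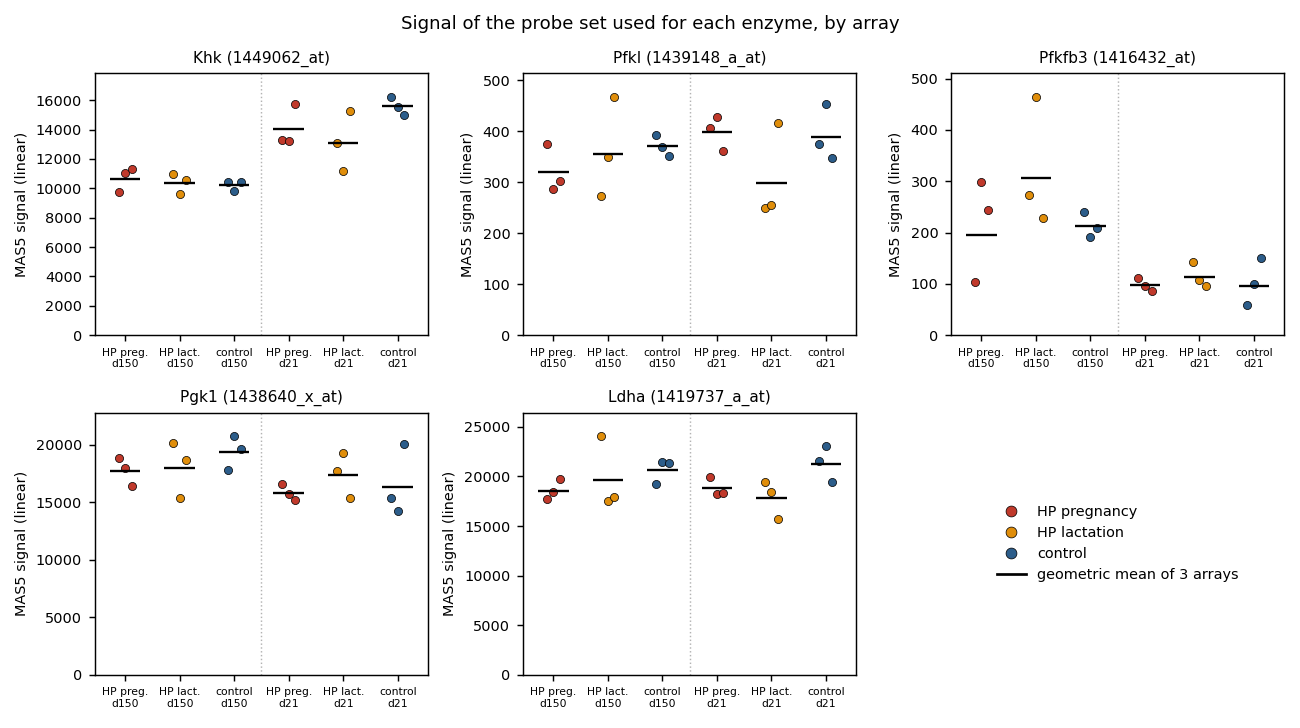
MAS5 signal (linear) of the probe set used for each of the 5 genes, 1 point per array and a bar at the geometric mean of 3, with day 150 groups left of the dotted line and day 21 groups right of it. All day 150 Khk points of a diet lie below that diet's day 21 points, and Pfkfb3 lies higher at day 150 in HP lactation and control.

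The other 3 genes did not pass the test between the days in any diet. Pfkl, the subunit that carries most phosphofructokinase activity in liver, lies at chr10:77986947-78009807 and read 375.2, 286.9 and 301.7 at day 150 after HP pregnancy and 405.7, 427.5 and 361.5 at day 21 on 1439148_a_at. HP lactation offspring had 273.6, 348.8 and 466.7 at day 150 and 249.5, 255.4 and 416.4 at day 21, and control offspring had 392.7, 368.7 and 351 at day 150 and 375.1, 452.4 and 347.1 at day 21. The days overlapped in all 3 diets, and the log2 changes were -0.32, 0.25 and -0.07 after HP pregnancy, after HP lactation and in control (95% intervals -0.755 to 0.122, -0.189 to 0.688 and -0.509 to 0.368).

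Pgk1 (chrX:106187100-106203699) read 18829.8, 17998.1 and 16391.2 at day 150 after HP pregnancy and 16585.9, 15700.8 and 15218.2 at day 21 on 1438640_x_at. After HP lactation it read 20155, 15385.1 and 18652.1 at day 150 and 17733.9, 19326.8 and 15355.7 at day 21, and in control 17832.3, 20737.6 and 19602.6 at day 150 and 15358.7, 14197.6 and 20080 at day 21. The days overlapped in each diet. Its log2 changes were 0.16 after HP pregnancy (95% interval -0.115 to 0.439), 0.05 after HP lactation (-0.232 to 0.322) and 0.24 in control (-0.035 to 0.52).

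Ldha (chr7:46842274-46855627) was among the brightest probe sets, above the 99th percentile of its own array on all 18 arrays. Its signal on 1419737_a_at was 17683.4, 18387.3 and 19719.9 at day 150 after HP pregnancy and 19917.5, 18257.6 and 18362.3 at day 21. After HP lactation it was 24052.9, 17566.6 and 17907.3 at day 150 and 19404.9, 18442.7 and 15756.3 at day 21, and in control 19280, 21453.9 and 21364.3 at day 150 and 21545.5, 23053.9 and 19486 at day 21. The days overlapped in each diet, with log2 changes of -0.02, 0.14 and -0.04 after HP pregnancy, after HP lactation and in control (95% intervals -0.272 to 0.233, -0.111 to 0.394 and -0.296 to 0.208).

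**Figure D2:**
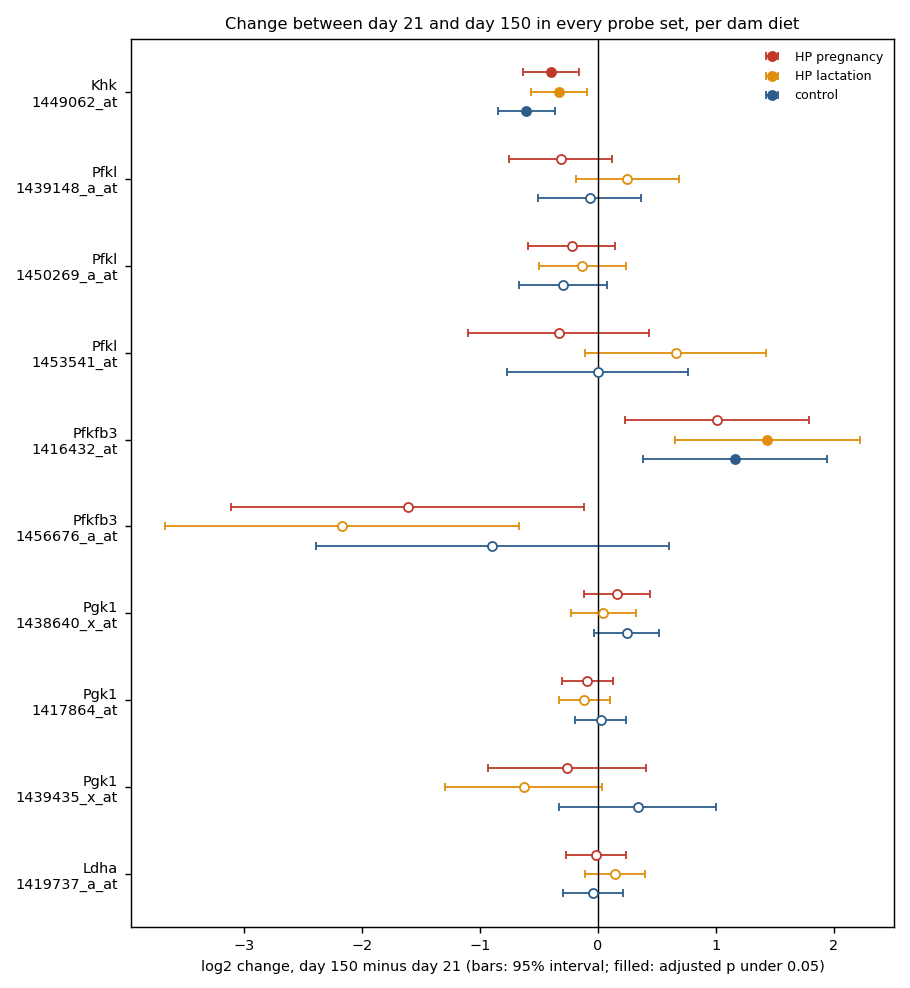
Log2 change of signal, day 150 minus day 21, for all 10 probe sets in each dam diet, with 95% intervals; filled points passed an adjusted p of 0.05. Khk lies left of 0 in all 3 diets, and the 2 Pfkfb3 probe sets lie on opposite sides of 0.

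Probe sets of one gene also parted in size. Those of Pfkl after HP lactation, and of Pgk1 after HP pregnancy and after HP lactation, also parted in direction. The further Pfkl probe sets, 1450269_a_at and 1453541_at, had day changes of -0.22 and -0.33 after HP pregnancy, -0.13 and 0.66 after HP lactation and -0.30 and 0.00 in control, and none passed. The 3 Pfkl probe sets correlated with each other at -0.183, -0.063 and 0.124 over 18 arrays. The Pgk1 probe sets 1417864_at and 1439435_x_at had day changes of -0.09 and -0.26 after HP pregnancy, -0.12 and -0.63 after HP lactation and 0.02 and 0.34 in control, none of which passed. The 3 Pgk1 probe sets correlated at 0.255 to 0.655.

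**Figure D3:**
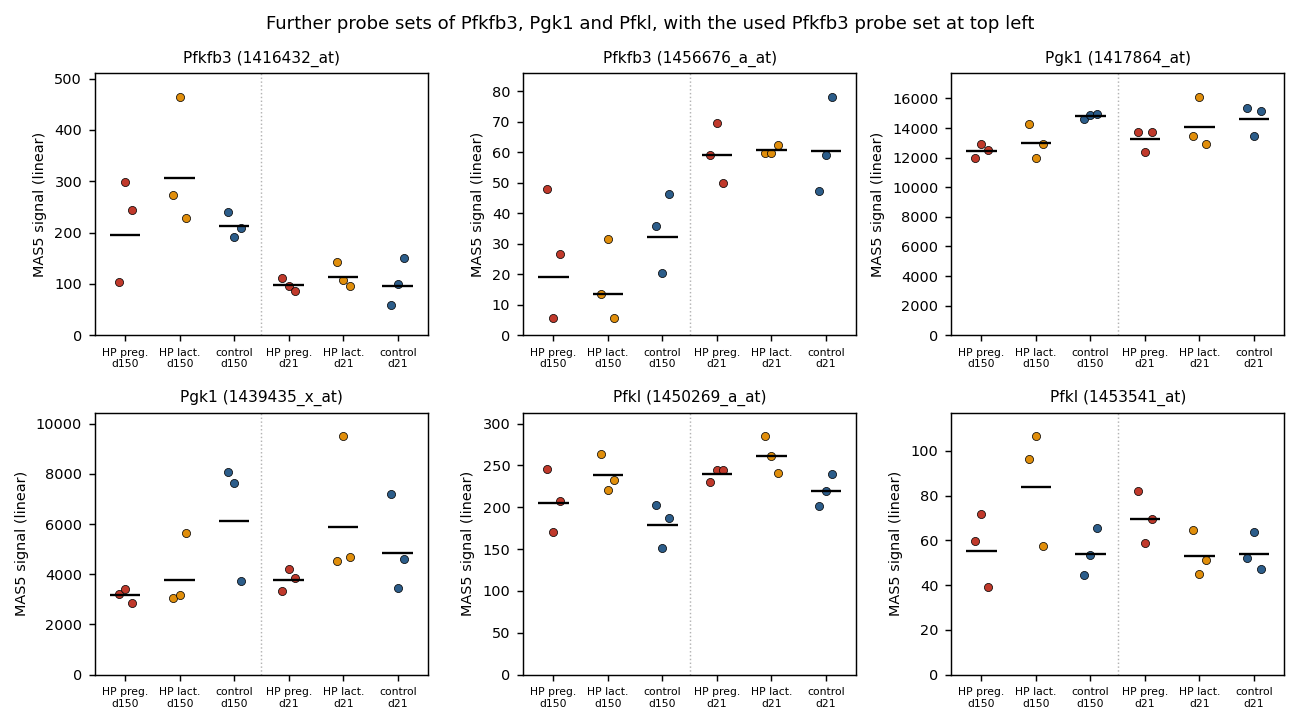
MAS5 signal (linear) of further probe sets, 1 point per array and a bar at the geometric mean of 3, with the used Pfkfb3 probe set for comparison at top left. The second Pfkfb3 probe set is lower at day 150 in each diet, and 1439435_x_at of Pgk1 spreads widely within the control and HP lactation groups.

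The diets were compared within each day, and 0 of the 5 genes passed in any of the 6 comparisons in limma. At day 150, 2.63% of all genes tested passed between HP pregnancy and control, 0.00908% between HP lactation and control and 0.717% between HP pregnancy and HP lactation. At day 21 these shares were 0%, 0.172% and 1.28%. At an unadjusted p under 0.05, 0 of the 5 differed in 5 of the comparisons, where 851 to 2208 of all 11018 genes did. In HP lactation against control at day 21, 2 of the 5 did, beside 1578 of all 11018 genes. There the log2 change was -0.25 for Khk (SE 0.114, adjusted p = 0.326) and -0.26 for Ldha (SE 0.12, adjusted p = 0.337), and the 3 HP lactation arrays of Ldha all lay below the 3 control arrays. The 99th percentile of signal also differed between those groups, at 14733 to 17381 in HP lactation and 17557 to 19566 in control. Quantile normalization gives every array the same distribution of signals. Under it the log2 changes were -0.036 for Khk (adjusted p = 0.932) and -0.02 for Ldha (adjusted p = 0.928). What part array scaling had in these differences was not tested. Khk at day 21 after HP pregnancy had a log2 change of -0.15 against control (95% interval -0.387 to 0.093), and at day 150 its changes were 0.06 (-0.178 to 0.302) after HP pregnancy and 0.02 (-0.216 to 0.264) after HP lactation.

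Pfkfb3 had the widest intervals: against control at day 150 its log2 change was -0.12 after HP pregnancy (95% interval -0.897 to 0.665) and 0.53 after HP lactation (-0.25 to 1.312), and at day 21 0.03 (-0.749 to 0.814) and 0.25 (-0.529 to 1.034). Pfkl at day 21 was at -0.38 after HP lactation (-0.822 to 0.055) and 0.03 after HP pregnancy (-0.408 to 0.468). On a further Pfkl probe set, 1450269_a_at, HP lactation offspring read 263.7, 220.5 and 232.5 at day 150 and control offspring 203.3, 150.9 and 186.6. These arrays did not overlap, yet the log2 change of 0.41 (SE 0.177) had an adjusted p of 0.564, and the probe set used for Pfkl was at -0.06. In this comparison 851 of all 11018 genes had an unadjusted p under 0.05 in limma.

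Pgk1 at day 150 depended on the probe set. On 1439435_x_at the signal was 3216.5, 3420.6 and 2861.2 after HP pregnancy and 8094.2, 7632.7 and 3724.7 in control, a log2 change of -0.96 (SE 0.319, adjusted p = 0.118). On 1417864_at it was 12000.9, 12890.2 and 12526.8 after HP pregnancy and 14607.6, 14911.4 and 14946.3 in control, a log2 change of -0.25 (SE 0.102, adjusted p = 0.194). On these 2 probe sets every HP pregnancy array was under every control array, but neither passed the test. The share of all probe sets whose arrays part in this way is not given here. In this comparison 2208 of all 11018 genes had an unadjusted p under 0.05 in limma. The probe set used for Pgk1, 1438640_x_at, was at -0.13 (SE 0.132) with overlapping arrays.

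The day change itself was compared between diets. In control the fall of Khk was the largest of the 3 by its point estimate, but the difference in day change was 0.21 for HP pregnancy minus control (SE 0.162, 95% interval -0.13 to 0.549) and 0.28 for HP lactation minus control (SE 0.162, 95% interval -0.061 to 0.618). For Pfkfb3 these differences were -0.15 (-1.253 to 0.956) and 0.28 (-0.826 to 1.383). In limma 0 of the 5 genes passed in either test, with 0.0182% of all genes passing in each. At an unadjusted p under 0.05, 0 of the 5 differed. Of all 11018 genes, 426 did for HP pregnancy minus control and 562 for HP lactation minus control. A further Pgk1 probe set, 1439435_x_at, had a difference of -0.97 for HP lactation minus control (95% interval -1.911 to -0.022, adjusted p = 0.942).

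**Figure D4:**
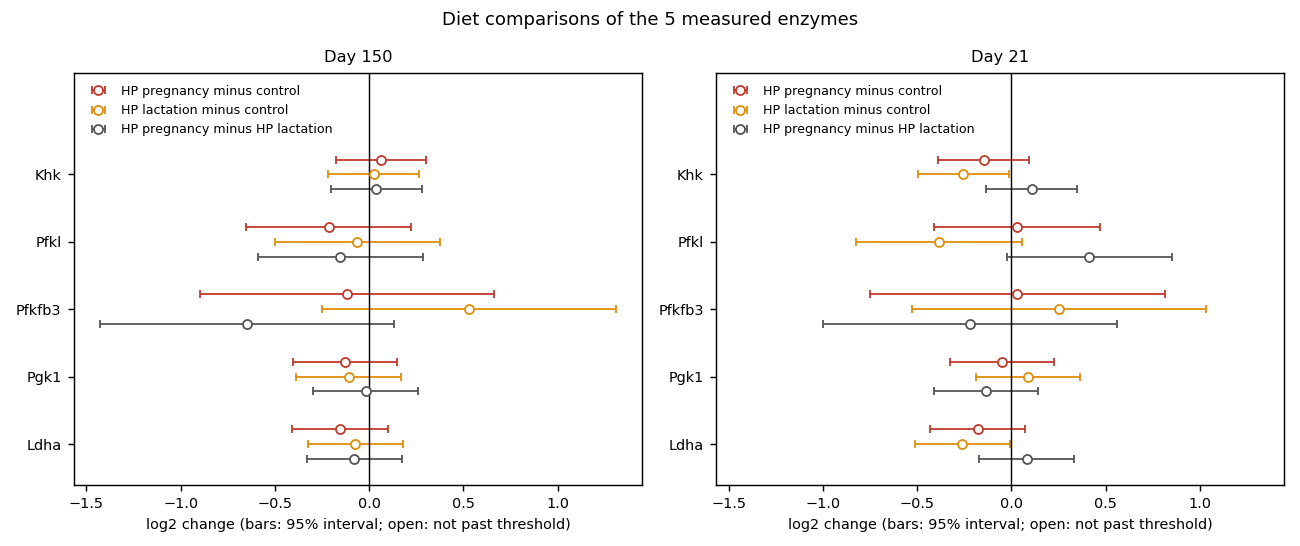
Log2 change of signal between dam diets for the 5 genes at day 150 (left) and day 21 (right), with 95% intervals, each colour 1 pair of diets. All points are open because none passed an adjusted p of 0.05.

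The neighbours of these enzymes were described from gene lists. Among 6 tested genes of fructose entry and breakdown, Glyctk, which phosphorylates glycerate from fructose, rose in all 3 diets (log2 change 0.51 after HP pregnancy, 0.66 after HP lactation and 0.51 in control). Its call was lost without single arrays in each diet, with adjusted p up to 0.127 after HP pregnancy, 0.0554 after HP lactation and 0.207 in control. Slc2a2, the liver's main glucose and fructose carrier, fell after HP pregnancy (-0.57, adjusted p = 0.00232) and in control (-0.59, adjusted p = 0.00259). Its signal was 10154.1, 9885.8 and 10040.3 at day 150 after HP pregnancy and 14968.6, 14286 and 15282.3 at day 21. With Khk that made 1 rise and 2 falls after HP pregnancy, 1 rise and 1 fall after HP lactation and 1 rise and 2 falls in control, beside the shares over all genes given for the 5 enzymes above. The list's median log2 change was -0.29, -0.06 and -0.39 in that order, against 0.02, 0.03 and 0.02 over all genes.

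Of 18 tested glycolysis and lactate genes, 1 rose and 3 fell after HP pregnancy, 3 rose and 2 fell after HP lactation, and 2 rose and 3 fell in control. Over all genes 12.1% rose and 11.5% fell after HP pregnancy, 14.1% and 11.6% after HP lactation and 9.7% and 8.08% in control, so the counts were near the background. Pklr, the liver form of pyruvate kinase, fell in all 3 diets. Its signal was 1060, 772.6 and 956.2 at day 150 after HP pregnancy and 2712.9, 2269.9 and 3351.1 at day 21. In HP lactation livers it was 1368.1, 1155.9 and 1136.5 at day 150 and 2051.3, 1807.5 and 6249 at day 21, and in control 1141.8, 945.7 and 1207.2 at day 150 and 5147, 2404.7 and 2847.8 at day 21. The days did not overlap in any diet, and the log2 changes were -1.57 after HP pregnancy (SE 0.339, adjusted p = 0.00275), -1.23 after HP lactation (adjusted p = 0.0126) and -1.59 in control (adjusted p = 0.00369). The HP lactation value rests in part on the array of 6249: without it, day 21 replicate 3, the change was -0.66 (adjusted p = 0.0584) and did not pass. Aldoa, the muscle-type aldolase, fell too (-0.69, -0.56 and -0.79 in the same order of diets), and Hk3, a hexokinase known from blood cells, rose (0.79, 0.93 and 1.03). The summed Kupffer cell markers were also higher at day 150 in each diet with no overlap of the arrays (19860.1 to 21376.1 against 13247.9 to 17671.1 after HP pregnancy, 14733.7 to 22367.2 against 9901.8 to 14135.3 after HP lactation, and 16206.4 to 22004.4 against 11756.9 to 13493.5 in control), and their part in any of these changes was not tested. Aldoc rose after HP lactation (0.52) and in control (0.54), Pfkm after HP lactation (0.51), while Slc16a1, a lactate carrier, fell after HP pregnancy (-0.56) and Hk1 in control (-0.89). Leaving out 1 array ended some of these calls: Aldoa after HP lactation (-0.37, adjusted p = 0.118, without day 21 replicate 1), Hk3 after HP pregnancy (0.50, adjusted p = 0.159, without day 150 replicate 1) and Pfkm after HP lactation (0.42, adjusted p = 0.0588, without day 21 replicate 3). The Aldoc calls and the Hk1 call were each lost without any one of 4 to 6 arrays (adjusted p up to 0.156 and 0.117). The list's medians were -0.05, 0.05 and -0.02.

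**Figure D5:**
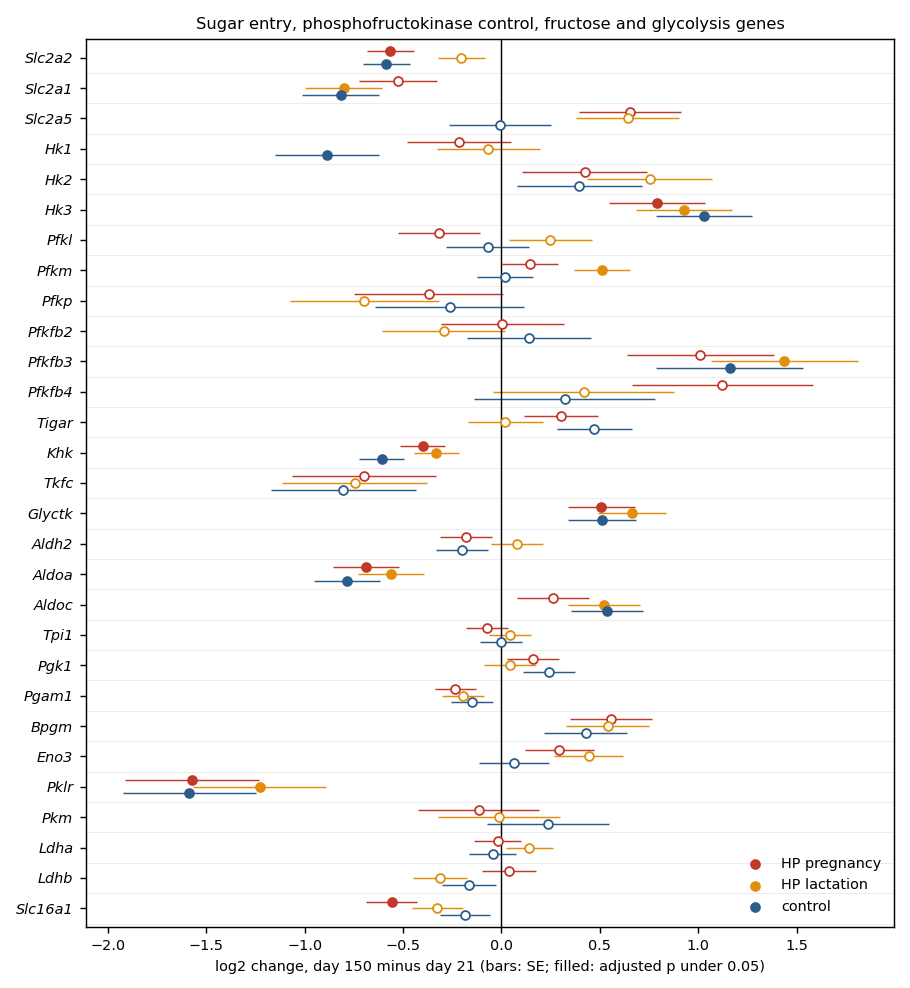
Log2 change of signal, day 150 minus day 21, of sugar entry, phosphofructokinase control, fructose and glycolysis genes in each dam diet, with SE bars; filled points passed an adjusted p of 0.05. Pklr, Aldoa and Khk lie left of 0 and Hk3 and Glyctk right of 0 in all 3 diets.

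Of 4 tested genes that make or break fructose 2,6-bisphosphate, Pfkfb3 alone passed, after HP lactation and in control. Pfkfb4 was at 1.12, 0.42 and 0.32 after HP pregnancy, after HP lactation and in control, and passed in none. The medians of these 4 were 0.66, 0.22 and 0.40. For the lists that follow, the shares over all genes were 12.1% risen and 11.5% fallen after HP pregnancy, 14.1% and 11.6% after HP lactation and 9.7% and 8.08% in control. Of 9 tested gluconeogenesis genes 0 rose and 3 fell in each diet, among them Slc37a4, the glucose 6-phosphate carrier (-1.02, -0.50 and -0.85), and Pcx, pyruvate carboxylase (-0.58, -0.42 and -0.47), with medians of -0.58, -0.50 and -0.56. After HP lactation single arrays ended the calls of Slc37a4 (-0.39, adjusted p = 0.0722, without day 150 replicate 6) and Pcx (-0.36, adjusted p = 0.0519, without day 150 replicate 5). Of 15 tested targets of the carbohydrate sensor ChREBP, 0 rose and 8 fell after HP pregnancy, 1 rose and 6 fell after HP lactation, and 0 rose and 3 fell in control. Khk is itself on that list, as is Fgf21, a hepatokine (-3.24, -2.08 and -2.39). The medians of this list were -0.55, -0.61 and -0.60. Of 11 pentose phosphate and glycogen genes 0 rose, and 8, 6 and 3 fell, including Gys2, the liver glycogen synthase (-0.91, -1.15 and -1.16), and the medians were -0.50, -0.49 and -0.41. Of 10 genes of pyruvate dehydrogenase control 0 rose, and 3, 4 and 1 fell, with medians of -0.34, -0.30 and -0.24. The counts of a list differ between diets, but 0 list genes passed when the day change itself was compared with that in control. This held after HP pregnancy and after HP lactation, where 0.0182% of all genes passed in each.

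Of 18 tested hypoxia targets, a list that holds Pfkfb3, Pgk1 and Ldha, 2 rose and 0 fell after HP pregnancy, 3 rose and 2 fell after HP lactation, and 3 rose and 1 fell in control, with medians of 0.25, 0.19 and 0.26. The shares over all genes were 12.1% risen and 11.5% fallen after HP pregnancy, 14.1% and 11.6% after HP lactation and 9.7% and 8.08% in control, so these counts were near the background. P4ha1, a collagen prolyl hydroxylase, rose after HP lactation (0.74) and in control (0.92), and Slc2a1, a widely expressed glucose carrier, fell in the same groups (-0.80 and -0.82). The P4ha1 call was lost after HP lactation without day 150 replicate 6 (0.37, adjusted p = 0.258) and in control without day 21 replicate 2 (0.83, adjusted p = 0.0772), among other arrays, and Slc2a1 after HP lactation was at -0.49 without day 21 replicate 1 (adjusted p = 0.0287).

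Between diets, few genes of these lists passed. At day 150 after HP pregnancy against control, Taldo1, transaldolase (-0.70, SE 0.147, adjusted p = 0.0277), and Slc37a4 (-0.54, SE 0.141, adjusted p = 0.0456) fell and Hif1a, the hypoxia factor's alpha subunit, rose (0.50, SE 0.13, adjusted p = 0.0474). At the same age Slc37a4 was lower in HP pregnancy than in HP lactation offspring (-1.06, SE 0.141, adjusted p = 0.00292). At day 21, Ndrg1, a stress-induced gene, was higher after HP pregnancy than after HP lactation (1.06, SE 0.243, adjusted p = 0.0366). With single arrays left out, the call of Slc37a4 between HP pregnancy and HP lactation was kept. Those of the other comparisons in this paragraph were lost without some arrays, with adjusted p up to 0.148 for Taldo1, 0.166 for Slc37a4, 0.239 for Hif1a and 0.12 for Ndrg1. Of the list genes that passed between the days, 12 of 29 kept the call without each array in turn after HP pregnancy, 8 of 30 after HP lactation and 12 of 20 in control.

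The genes whose log2 signal followed each enzyme most closely over the 18 arrays were Actn1, Mageh1 and Ldlrad3 for Khk (r = 0.92, 0.902 and 0.897) and Nudt3, Rasgrp2 and P2rx4 for Pfkfb3 (0.876, 0.868 and 0.861). For Ldha they were Cdo1, Atp5g3 and Atp5d (0.943, 0.939 and 0.936), for Pfkl Atg4c, Dnpep and Gpsm2 (0.818, 0.808 and 0.78), and for Pgk1 Deaf1, Cth and Il1b (0.781, 0.767 and 0.764). With group means taken off, the closest gene was Tmem63a for Khk (0.845), Nrg4 for Pfkfb3 (0.881), Ahsg for Ldha (0.947), Atg4c for Pfkl (0.903) and Elk1 for Pgk1 (0.86). Each was the highest of all genes tested and shares arrays and array scaling with the enzyme. Among the enzymes, Khk and Pfkfb3 had r = -0.729 over all arrays, and -0.07 with group means taken off.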

How the data were processed

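Signal intensities were deposited by the authors and made with MAS5 in GCOS 1.4, per the submitters' processing notes. The trimmed mean of every array was 500 (2% off each end), so the arrays were not rescaled, and log2 values were taken with an offset of 0. Probe sets with a mean log2 signal of at least 5.846 (the median of 45037 non-control sets, a signal of 57.5) and 1 symbol were kept (19349), and the brightest per gene was used, leaving 11018 genes. Of 34958 probe sets with 1 symbol, 34754 matched RefSeq by gene ID. Probe sets with several symbols (932) or none (9211) were left out.

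Group means of all 18 arrays were fitted in limma 3.58.1 (R 4.3.3, eBayes with trend) for 11 comparisons, two-sided, with Benjamini-Hochberg adjustment over all genes in each and a threshold of 0.05. The 3 arrays per group limit the precision: the median SE was 0.189, and 0.267 for differences of day changes, on 12 residual and 6.47 prior degrees of freedom. Further probe sets of a gene come from a fit of every kept probe set. The code was tested on simulated data. Figures used matplotlib 3.10.9 (Python 3.11.15).

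The members and gene lists were chosen with earlier results of these data known. The text could name all members, a set of isoenzymes, every list gene that passed, up to 4 of smallest p per list, and the 3 genes most like each member. Replicate numbers are not stated to pair the samples and were not used as pairs in the main fit. Of 30 same-numbered pairs, 1 had deviations correlated over 0.1. HP lactation day 150, which shares no number, was not part of this check. Low correlation over all genes cannot exclude that same-numbered samples share an origin. The alternatives changed the filter (none, or the 70th percentile), the scale (quantile normalization, or an offset of 50), the probe sets (all kept ones), the variance model (no trend, or array weights), the threshold (0.1) and the arrays (those compared only, each left out in turn, or both with Xist signal left out), or added a replicate block. The Gapdh ratio as a covariate, and single arrays left out for list genes, were chosen after seeing the data.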

Additional observations from a re-analysis of the deposited data

How the results depend on the processing

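Of 55 log2 changes (5 genes in 11 comparisons), 5 passed the threshold; over 81 values under alternatives these changed sign in 0 and kept the threshold in 57. Of the other 50, 27 changed sign in some alternative and 1 passed in some, the Pfkfb3 day change after HP pregnancy (adjusted p = 0.0391 with quantile normalization, 0.00886 with array weights and 0.00776 without HP pregnancy day 150 replicate 1). The cause was not tested, except that the filter at the 70th percentile removes Pfkfb3 and leaving arrays out leaves fewer samples. The 3 arrays per group and probe set brightness limit what can be seen.

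Genes called between the days numbered 1 of 5 in control (Khk kept, Pfkfb3 lost or not tested) with no filter, with the filter at the 70th percentile, with array weights and without the arrays with Xist signal, 0 with the Gapdh ratio as a covariate, and 1 to 2 with single arrays left out. After HP pregnancy they numbered 2 with quantile normalization, with array weights and at an adjusted p under 0.1, 0 with the covariate, and 0 to 1 with single arrays left out. After HP lactation they numbered 1 with no filter, without the trend, with array weights and with the compared arrays alone (Pfkfb3 kept, Khk lost) and with the filter at the 70th percentile (Khk kept, Pfkfb3 not tested), 0 with the covariate, and 0 to 2 with single arrays left out. With a replicate block, for which HP lactation day 150 shares no number, Khk in control was at -0.61 (adjusted p = 0.00225) and Pfkfb3 at 1.16 (adjusted p = 0.049), and no call changed.

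The remaining values are log2 changes that did not pass and turned sign. With quantile normalization, HP pregnancy against control at day 21 gave -0.036 for Pfkl, -0.039 for Pfkfb3, 0.113 for Pgk1 and 0.038 for Ldha, and Pgk1 was at 0.002 between HP pregnancy and HP lactation at day 150. The day change after HP lactation was -0.075 for Pgk1 and -0.003 for Ldha, and the day change after HP pregnancy minus that in control was -0.081 for Ldha. Pfkfb3 in HP pregnancy against control at day 21 was -0.001 with 50 added, -0.158 with array weights and -0.017 with the covariate. With array weights, Pgk1 was at 0.024 between HP pregnancy and HP lactation at day 150, the day change was 0.009 for Pfkl and 0.009 for Ldha in control, 0.003 for Ldha after HP pregnancy and -0.039 for Pgk1 after HP lactation, and the day change after HP pregnancy minus that in control was 0.158 for Pfkfb3, 0.038 for Pgk1 and -0.007 for Ldha. With the covariate, Pfkfb3 was at 0.099 in HP pregnancy against control at day 150, Ldha at -0.225 in the day change after HP lactation, and the day change after HP pregnancy minus that in control was 0.117 for Pfkfb3 and -0.091 for Ldha.

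Without the arrays with Xist signal, HP lactation against control gave -0.014 for Pgk1 at day 21 and -0.018 for Khk and 0.123 for Pfkl at day 150, and HP pregnancy against HP lactation at day 150 gave 0.064 for Pgk1 and 0.067 for Ldha. The day change was 0.038 for Pfkl and 0.013 for Ldha in control and -0.038 for Pgk1 and -0.005 for Ldha after HP lactation. Minus that in control, it was 0.022 for Pgk1 and -0.032 for Ldha after HP pregnancy and -0.018 for Ldha after HP lactation.

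With single arrays left out, HP pregnancy against control ranged from -0.052 to 0.139 for Pfkl, -0.324 to 0.359 for Pfkfb3 and -0.15 to 0.1 for Pgk1 at day 21, and from -0.419 to 0.342 for Pfkfb3 at day 150. HP lactation against control ranged from -0.104 to 0.579 for Pfkfb3 and -0.014 to 0.236 for Pgk1 at day 21, and from -0.018 to 0.08 for Khk, -0.262 to 0.123 for Pfkl, -0.192 to 0.003 for Pgk1 and -0.221 to 0.006 for Ldha at day 150. HP pregnancy against HP lactation ranged from -0.007 to 0.22 for Khk and -0.007 to 0.144 for Ldha at day 21, and from -0.017 to 0.105 for Khk, -0.339 to 0.047 for Pfkl, -0.131 to 0.064 for Pgk1 and -0.16 to 0.067 for Ldha at day 150. The day change ranged from -0.063 to 0.021 for Ldha after HP pregnancy, -0.045 to 0.157 for Pgk1 and -0.005 to 0.222 for Ldha after HP lactation, and -0.153 to 0.038 for Pfkl and -0.108 to 0.013 for Ldha in control. Minus that in control, it ranged from -0.475 to 0.31 for Pfkfb3, -0.228 to 0.022 for Pgk1 and -0.032 to 0.089 for Ldha after HP pregnancy, and from -0.048 to 0.635 for Pfkfb3 after HP lactation.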
